A study of Mus musculus with 10 samples.

Results

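A set of 10 genes for proteins that coat hepatic lipid droplets, or that break down the triglyceride inside them, was followed in livers of mice given the PAI-1 inhibitor TM5614. They were taken by symbol from the count table and make up 10 of its 24421 genes. Plin2, Plin4 and Plin5 encode perilipins, Cideb and Cidec encode CIDE proteins, Pnpla2, Lipe and Mgll encode lipases, and G0s2 and Abhd5 encode the inhibitor and the co-activator of the first of these lipases. RNA-seq was performed on poly(A) RNA from 10 livers of male, ad lib fed, wild-type mice aged 21 weeks, C57BL/6 by the labels and C57BL/6 J by the study's methods, each liver giving 1 library. The Chow group comprised 5 mice on chow alone, and the TM5614 group comprised 5 mice fed TM5614 in the chow during 10 days, at 20 mg/kg/day. This compound is given by mouth and inhibits PAI-1, the main inhibitor of the plasminogen activators. No genetic change was made in either group, and a single dose and a single time point were sampled. Libraries held 6398335 to 10874955 counts. Low counts removed none of the 10 genes, which were all among the 11092 genes tested.

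A lipid droplet is a core of triglyceride and sterol ester under a single layer of phospholipid. Perilipins sit on that layer and control the access of lipases, CIDE proteins act where droplets touch and promote the transfer of lipid into larger droplets, and lipases remove the fatty acids of triglyceride in sequence. Adipose triglyceride lipase (Pnpla2) takes the first fatty acid, hormone-sensitive lipase (Lipe) acts mainly on diglyceride and monoglyceride lipase (Mgll) releases the last. In liver, several of these genes are known targets of the fatty acid receptor PPARα, and their messenger RNAs are known to rise when droplets accumulate and in fasting. The messenger RNAs alone were measured here, not the proteins, the droplets or the lipid in them.

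For the 5 genes called higher, the promoter was read from RefSeq on GRCm38.p6. Whether these genes vary together across livers was not tested. Each line gives 250 bases before the transcription start and the first 30 bases after it, 5′ to 3′ on the strand of the gene. For Plin5 and Cidec, which have more than 1 listed start, the most upstream start is shown. Capitals mark matches on either strand to the nuclear receptor core AGGTCA or to the E-box CACGTG.
Plin2, chr4:86670030-86670309, minus strand: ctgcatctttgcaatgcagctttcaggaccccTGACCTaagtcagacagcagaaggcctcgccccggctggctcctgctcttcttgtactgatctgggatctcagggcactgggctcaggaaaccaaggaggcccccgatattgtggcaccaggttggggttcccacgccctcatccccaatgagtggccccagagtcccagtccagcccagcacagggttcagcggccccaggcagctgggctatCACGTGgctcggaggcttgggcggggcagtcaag
Plin4, chr17:56109753-56110032, minus strand: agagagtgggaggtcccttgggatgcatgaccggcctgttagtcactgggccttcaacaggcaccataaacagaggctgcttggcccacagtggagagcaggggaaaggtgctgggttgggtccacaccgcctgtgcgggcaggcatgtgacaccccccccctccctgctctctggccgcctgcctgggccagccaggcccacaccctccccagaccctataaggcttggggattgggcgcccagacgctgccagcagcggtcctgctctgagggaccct
Plin5, chr17:56117519-56117798, minus strand: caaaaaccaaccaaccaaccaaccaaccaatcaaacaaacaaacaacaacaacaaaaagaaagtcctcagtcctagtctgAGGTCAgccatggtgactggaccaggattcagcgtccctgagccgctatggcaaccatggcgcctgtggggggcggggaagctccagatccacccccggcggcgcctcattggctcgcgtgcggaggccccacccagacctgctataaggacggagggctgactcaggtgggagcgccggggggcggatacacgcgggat
Cidec, chr6:113435731-113436010, minus strand: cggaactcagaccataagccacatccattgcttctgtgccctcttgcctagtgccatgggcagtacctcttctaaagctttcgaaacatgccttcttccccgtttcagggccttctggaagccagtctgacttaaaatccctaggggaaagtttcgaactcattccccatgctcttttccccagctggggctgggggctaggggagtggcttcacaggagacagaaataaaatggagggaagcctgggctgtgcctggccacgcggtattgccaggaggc
G0s2, chr1:193273159-193273438, minus strand: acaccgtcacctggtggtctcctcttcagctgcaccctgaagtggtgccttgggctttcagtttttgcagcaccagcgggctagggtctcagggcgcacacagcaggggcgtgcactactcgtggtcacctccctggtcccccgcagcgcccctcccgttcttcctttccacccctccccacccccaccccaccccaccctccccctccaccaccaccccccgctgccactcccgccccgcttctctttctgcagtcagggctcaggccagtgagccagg

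The nuclear receptor core lay at bases -218 to -213 from the start of Plin2 (on the opposite strand) and at -170 to -165 of Plin5, and the E-box of Plin2 ran across the start, from -4 to 2. No match to either motif, or to the forkhead motif GTAAACA, was found in the windows shown for Plin4, Cidec and G0s2. Over 300 bases around each of the 14 listed starts of the 10 genes, 4 windows held the core (Plin2, Abhd5 and both of Plin5), 3 held the E-box (Plin2, Mgll and Lipe) and 2 held the forkhead motif (Mgll and Lipe). Among all 32851 promoters of the same length the shares were 16.3% for the core, 7.15% for the E-box and 3.65% for the forkhead motif. The DR1 element, the core repeated in the same direction after 1 base, stood in 0.0396% of all promoters and in 0 of the 14. At a share this low, a count of 0 in 14 windows cannot tell these genes from others. These matches describe the letters alone. The windows of Plin5 overlap each other, as do those of Mgll, so the 14 windows are not independent.

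Compared with Chow, TM5614 livers held more RNA of 5 of the 10 genes, namely Cidec, G0s2, Plin5, Plin2 and Plin4, with fold changes from 1.98 to 5.37. None of the 10 was called lower, although 4 had estimates below 0, and Mgll, Abhd5, Pnpla2, Cideb and Lipe did not pass the test. The test was edgeR's quasi-likelihood test with Benjamini-Hochberg adjustment over all genes tested and a threshold of 0.05. By the same rule 499 genes (4.50%) were called, 1.73% of genes as higher and 2.77% as lower, so the 5 higher calls among 10 genes stood against a background share of 1.73%. For the count of 0 lower, 0 of the 10 genes were lower at an unadjusted p under 0.05 with edgeR, DESeq2 or limma-voom. At an adjusted p under 0.05, DESeq2 called 5.10% and limma-voom 7.25% of all genes as lower. The share of all genes at an unadjusted p is not given here. At these adjusted shares, a count of 0 among 10 genes does not set them apart from the background. In 4 genes (Plin2, Plin5, Cidec and G0s2) every TM5614 liver lay above every Chow liver, which held in that direction for 4.07% of genes tested and in the opposite direction for 4.87% of genes tested and 0 of the 10. The median log2 fold change was 0.72 over the 10 genes and 0.01 over all genes tested. The 10 genes were chosen with earlier results of these data known. The contrasts above with all genes tested may therefore partly reflect that choice. Because whole liver was sequenced, more cells of a type and more RNA per cell cannot be told apart.

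**Figure D1:**
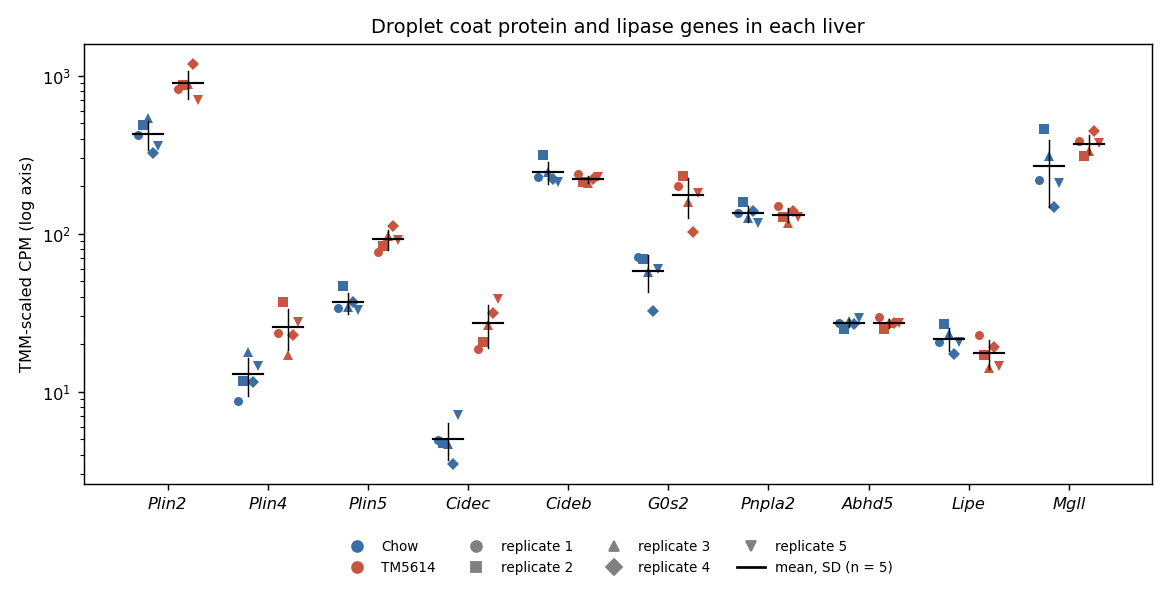
TMM-scaled CPM (counts scaled to library size, log axis) of the 10 genes in each of the 5 Chow livers (blue) and 5 TM5614 livers (red), with marker shapes for replicates, a horizontal line at the mean and a vertical line for 1 SD to each side. The groups stand apart for Plin2, Plin5, Cidec and G0s2 and overlap by 1 pair of livers for Plin4. For Mgll they overlap through Chow replicate 2 alone, and they overlap more widely for Cideb, Pnpla2, Abhd5 and Lipe.

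**Figure D2:**
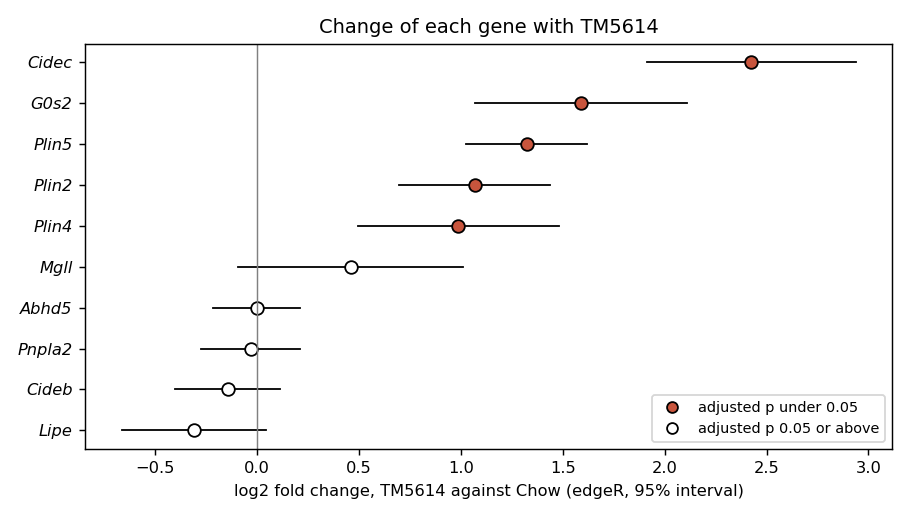
Log2 fold change of each gene, TM5614 against Chow (n = 5 livers each), with its 95% interval from the edgeR fit. Filled points passed an adjusted p of 0.05, and they run from 0.99 for Plin4 to 2.43 for Cidec.

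Among the perilipins, Plin2 is the coat found on droplets in nearly every tissue and the main one of hepatocytes (chromosome 4, 86648386 to 86670060, GRCm38). In CPM (counts scaled to the size of each library), Chow livers held, in replicate order, 419, 488, 537, 326 and 361 CPM of Plin2, and TM5614 livers held 818, 871, 887, 1186 and 702 CPM. The lowest TM5614 liver thus lay above the highest Chow liver. The mean was 426 ± 87.3 CPM in Chow and 893 ± 179 CPM in TM5614 (SD, n = 5 each), a 2.09-fold rise (95% interval 1.62 to 2.71) with a log2 fold change of 1.07 and a standard error of 0.17 (edgeR adjusted p = 0.00411).

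Plin5 is the coat of oxidative tissues such as heart, muscle and fasted liver, and it tethers droplets to mitochondria (chromosome 17, 56111601 to 56117596). It was detected at 34.0, 46.4, 34.2, 36.8 and 32.7 CPM in Chow livers and at 76.4, 83.4, 96.2, 112 and 91.9 CPM in TM5614 livers. Chow livers were tightly grouped except for replicate 2, and the groups did not overlap. Plin5 rose 2.50-fold (95% interval 2.03 to 3.08), from 36.8 ± 5.56 to 92.0 ± 13.7 CPM (SD, n = 5 each), with a log2 fold change of 1.32 and a standard error of 0.14 (edgeR adjusted p = 0.000402). By unadjusted p it ranked 12 of 11092 genes.

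Plin4, a coat most abundant in adipocytes and muscle, lies next to Plin5 on the same strand of chromosome 17 (56100591 to 56109803), with 1797 bases between the genes. Chow livers held 8.73, 11.7, 18.0, 11.6 and 14.6 CPM and TM5614 livers 23.5, 37.1, 17.1, 23.0 and 27.8 CPM. Chow replicate 3 lay above TM5614 replicate 3, so the groups overlapped by this pair. Plin4 rose 1.98-fold (95% interval 1.41 to 2.79), from 12.9 ± 3.51 to 25.7 ± 7.43 CPM (SD, n = 5 each, edgeR log2 fold change 0.99, SE 0.23, adjusted p = 0.0293), on 72 to 286 counts per library. This call was kept in 4 of the 10 fits that left out 1 library. The log2 fold change stayed at 0.82 to 1.03 in the fits that lost the call. It was lost without Chow replicate 1 (edgeR adjusted p = 0.0536) or 4 (0.0728) and without TM5614 replicate 1 (0.0560), 2 (0.0618), 4 (0.0604) or 5 (0.0708). It was also lost when the change was tested against a fold of 1.2 (adjusted p = 0.0763).

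The highest Plin4 value was in TM5614 replicate 2, which also held transcripts of skeletal muscle and the highest values of Fabp4 and Adipoq. The 10 muscle markers summed to 3958 CPM in that library, to at most 64.4 CPM in the other TM5614 livers and to 0.728 to 1.45 CPM in Chow livers, and none was tested because each was too low elsewhere. The 10 adipocyte markers summed to 746 to 1711 CPM in Chow and 356 to 813 CPM in TM5614 livers, most of it from Car3. In TM5614 replicate 2 this sum was 597 CPM, inside the TM5614 range. Fabp4, a fatty acid binding protein of adipocytes and endothelium, stood at 62.9 CPM in TM5614 replicate 2 and at no more than 16.4 CPM in any other liver. Car3, a carbonic anhydrase of fat, muscle and male mouse liver, fell by 1.33 on the log2 scale (edgeR, SE 0.26, adjusted p = 0.0141) and was the single called marker of the 4 tested. Without Car3, Fabp4 and Adrb3, a subset chosen after the values were seen, the 7 remaining markers summed to 0.364 to 10.1 CPM in Chow, to 21.2 CPM in TM5614 replicate 2 and to at most 4.00 CPM in the other TM5614 livers. Adipoq, the adipocyte hormone gene, stood at 7.40 CPM in TM5614 replicate 2, at 2.58 CPM in Chow replicate 5 and at no more than 1.26 CPM in the other livers. Other adipocyte markers were not highest in TM5614 replicate 2. Cidea stood at 0.649 CPM there and at 2.46 CPM in TM5614 replicate 5, and Adrb3 at 4.02 CPM there and at 8.24 CPM in Chow replicate 4. Without TM5614 replicate 2 the log2 fold changes (edgeR adjusted p) were 0.82 (0.0618) for Plin4, 1.07 (0.0106) for Plin2, 1.35 (0.00110) for Plin5, 2.50 (0.000523) for Cidec and 1.46 (0.00821) for G0s2.

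Of the CIDE proteins, Cidec (also called FSP27) is low in healthy liver and known to rise in fatty liver and fasting, and it drives the growth of large droplets (chromosome 6, 113424634 to 113435760). It stood at 4.97, 4.73, 4.70, 3.49 and 7.08 CPM in Chow livers and at 18.5, 20.6, 26.4, 31.5 and 38.5 CPM in TM5614 livers. The lowest TM5614 liver held more than the highest Chow liver, which was the Chow library with 2.58 CPM of Adipoq. TM5614 replicate 2, with 7.40 CPM of Adipoq, held 20.6 CPM of Cidec. The highest Cidec value, in TM5614 replicate 5, came with 0.205 CPM of Adipoq. A part of adipocytes in the Cidec values was not tested. The means were 4.99 ± 1.30 and 27.1 ± 8.14 CPM (SD, n = 5 each), a 5.37-fold rise (95% interval 3.76 to 7.66) with a log2 fold change of 2.43 and a standard error of 0.24 (edgeR adjusted p = 0.000340). This was the largest change of the 10 genes and ranked 12 among the 192 genes called higher, although the Chow value rests on 22 to 77 counts per library. Without Chow replicate 5 the log2 fold change of Cidec was 2.59 (edgeR adjusted p = 0.00113).

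Cideb, the CIDE protein of hepatocytes, with a known part in the lipidation of very-low-density lipoprotein, did not pass the test (chromosome 14, 55754050 to 55758458). Chow livers held 230, 313, 247, 222 and 213 CPM and TM5614 livers 238, 211, 209, 221 and 227 CPM. Apart from Chow replicate 2 the livers of both groups lay in a narrow, shared range. The log2 fold change was -0.15 with a standard error of 0.12 (edgeR adjusted p = 0.502), with a 95% interval of the fold from 0.757 to 1.08. Cideb shares 1136 exon bases with Nop9 on the opposite strand. Whether counting used strand is not given in the sources used here, and reads of the pair may not be told apart. Nop9 itself stood at 19.5 to 31.2 CPM (edgeR log2 fold change -0.11, adjusted p = 0.665).

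Pnpla2 encodes adipose triglyceride lipase, the enzyme that starts triglyceride breakdown (chromosome 7, 141455198 to 141460743). Its level was 135, 158, 126, 139 and 116 CPM in Chow livers and 149, 127, 116, 140 and 128 CPM in TM5614 livers. The groups covered nearly the same range. The log2 fold change was -0.03 with a standard error of 0.11 (edgeR adjusted p = 0.890), and the 95% interval of the fold was 0.825 to 1.16.

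G0s2 encodes the small protein that binds this lipase and inhibits it (chromosome 1, 193272161 to 193273217). Chow livers held 71.4, 68.7, 57.5, 32.3 and 60.1 CPM, and TM5614 livers held 199, 233, 158, 103 and 182 CPM. The groups were apart, and replicate 4 was the lowest liver in each of them. G0s2 rose 3.01-fold (95% interval 2.10 to 4.32), from 58.0 ± 15.5 to 175 ± 48.7 CPM (SD, n = 5 each), with a log2 fold change of 1.59 and a standard error of 0.24 (edgeR adjusted p = 0.00302).

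Abhd5 encodes the co-activator of the same lipase, which perilipins hold back and release (chromosome 9, 122351608 to 122381524). It stood at 27.3, 24.8, 28.1, 26.9 and 29.3 CPM in Chow and 29.7, 24.8, 27.3, 27.1 and 27.3 CPM in TM5614 livers. The ranges of the groups lay over each other. Its log2 fold change was -0.00 with a standard error of 0.10 (edgeR adjusted p = 0.992), with a 95% interval of the fold from 0.862 to 1.16. Abhd5 shares 950 exon bases with the antisense gene A730085K08Rik, which had 0 counts in every library.

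Lipe, the hormone-sensitive lipase of adipocytes and steroid-producing cells, was low in liver (chromosome 7, 25379527 to 25398710). Its CPM were 20.5, 26.9, 23.2, 17.3 and 20.7 in Chow livers and 23.0, 17.0, 14.2, 19.2 and 14.6 in TM5614 livers. The groups overlapped, and 3 TM5614 livers lay below all Chow livers. With a log2 fold change of -0.31 and a standard error of 0.16, Lipe missed the threshold (edgeR adjusted p = 0.308), and the 95% interval of the fold was 0.631 to 1.03. Its antisense neighbour 4732471J01Rik, which shares 918 exon bases with it, had at most 9 counts in a library.

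Mgll, the lipase that releases glycerol and the last fatty acid, varied widely between Chow livers (chromosome 6, 88724412 to 88828360). Chow livers held 218, 462, 309, 148 and 208 CPM and TM5614 livers 388, 310, 333, 447 and 373 CPM. Every TM5614 liver lay above 4 of the 5 Chow livers, and Chow replicate 2 lay above all TM5614 livers. The log2 fold change was 0.46 with a standard error of 0.25 (edgeR adjusted p = 0.330), with a 95% interval of the fold from 0.938 to 2.02.

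The call on Mgll turned on Chow replicate 2. Without that library its log2 fold change was 0.74 and it was called higher (edgeR adjusted p = 0.0221), in a fit that called 3.63% of all genes as higher. Limma-voom with sample quality weights gave 0.74 (adjusted p = 0.0135) and called 5.25% of all genes as higher, and without replicate 2 of both groups edgeR gave 0.80 (adjusted p = 0.0131). Chow replicate 2 was the library in which a trend over GC content and transcript length accounted for 46.0% of the spread of gene values around the group, against 0.763% to 11.5% in the other libraries. It was also the highest Chow liver for Plin5, Cideb, Pnpla2 and Lipe. With GC content and length corrected in the fit, the log2 fold changes were 0.61 for Mgll, 0.05 for Cideb and 0.14 for Pnpla2, and none passed the test. The part of this library's departure in the result for Mgll was not tested beyond these fits.

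Levels of different genes were compared per length, with the deposited FPKM (reads scaled by transcript length and library size). In Chow livers Plin2 was highest at 223 ± 46.3 FPKM, next to Cideb at 206 ± 33.8 FPKM (SD, n = 5 each), and the ranges of the pair overlapped. G0s2 (68.0 ± 18.3), Mgll (57.5 ± 26.2) and Pnpla2 (49.1 ± 5.68 FPKM) followed with overlapping ranges. Plin5 (17.8 ± 2.70 FPKM) stood below them, with no overlap, and above Abhd5 (8.56 ± 0.515) and Lipe (6.56 ± 1.09 FPKM), which overlapped each other. Cidec (2.87 ± 0.747) and Plin4 (2.22 ± 0.604 FPKM) were the lowest and also overlapped.

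In TM5614 livers Plin2 stood alone at the top, at 467 ± 95.0 FPKM, a mean that ranked 134 among the 24421 genes listed. G0s2 came next at 204 ± 55.5 FPKM, where its range overlapped that of Cideb (186 ± 10.7 FPKM), whereas in Chow livers every Cideb value was above every G0s2 value. Plin5 (44.5 ± 6.82 FPKM) reached the range of Pnpla2 (47.9 ± 4.79 FPKM). Cidec (15.6 ± 4.75 FPKM) passed both Abhd5 (8.53 ± 0.597 FPKM) and Lipe (5.30 ± 1.10 FPKM) without overlap. Mgll (79.0 ± 11.8 FPKM) lay between Cideb and Pnpla2, and Plin4 (4.40 ± 1.23 FPKM) remained lowest, overlapping Lipe.

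**Figure D3:**
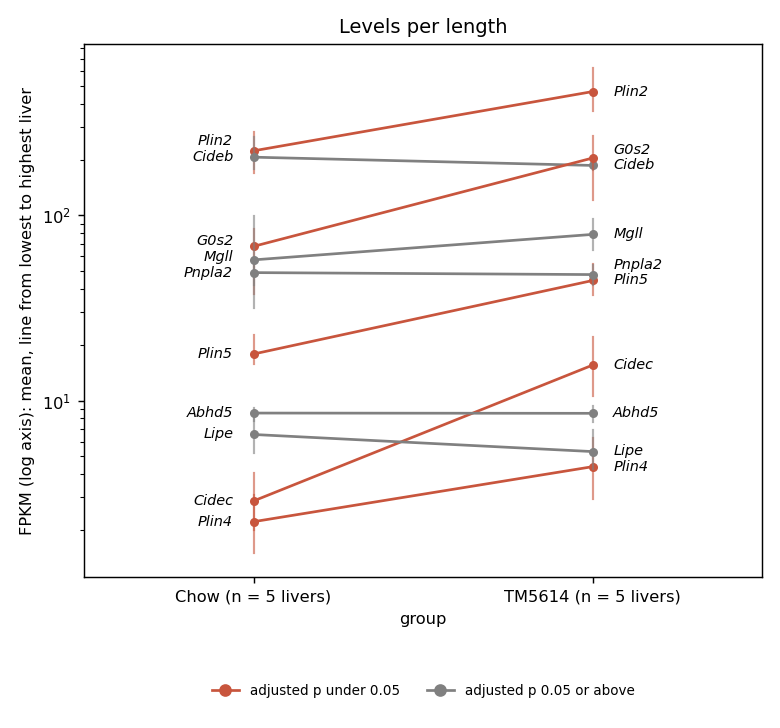
Mean FPKM (log axis) of the 10 genes in Chow and TM5614 livers (n = 5 each), joined by lines, with vertical lines from the lowest to the highest liver. G0s2 climbed from 68.0 to 204 FPKM, beside Cideb, and Cidec crossed Abhd5 and Lipe on its way from 2.87 to 15.6 FPKM.

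Ratios of FPKM within a library set partners against each other without any scaling between libraries, and they are given with no test. The ratio of the inhibitor to its lipase, G0s2 to Pnpla2, was 1.70, 1.40, 1.47, 0.747 and 1.67 in Chow livers and 4.30, 5.91, 4.39, 2.36 and 4.59 in TM5614 livers. All TM5614 livers were above all Chow livers, with means of 1.40 ± 0.385 and 4.31 ± 1.27 (SD, n = 5 each). The ratio of the co-activator to the same lipase, Abhd5 to Pnpla2, was 0.136 to 0.217 in Chow and 0.167 to 0.203 in TM5614 livers, and the TM5614 range lay inside the Chow range.

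Cidec to Cideb, the ratio of the inducible to the resident CIDE gene, was 0.0103 to 0.0227 in Chow and 0.0531 to 0.116 in TM5614 livers, with no overlap. The mean ratio was 5.85 times as high in TM5614. Plin5 to Plin2 was 0.0590 to 0.104 in Chow and 0.0864 to 0.121 in TM5614 livers. These ranges overlapped, with means of 0.0820 ± 0.0167 and 0.0968 ± 0.0147 (SD, n = 5 each).

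**Figure D4:**
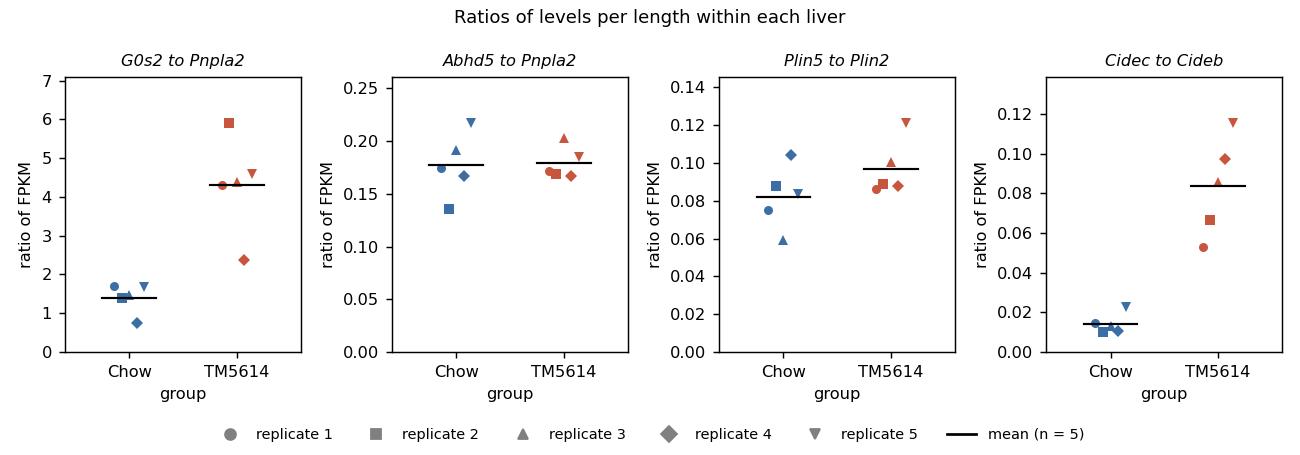
Ratios of FPKM within each of the 5 Chow (blue) and 5 TM5614 livers (red), with the group mean as a line. G0s2 to Pnpla2 and Cidec to Cideb separate the groups, while Abhd5 to Pnpla2 and Plin5 to Plin2 overlap.

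Other genes of the droplet were counted by lists. Of 17 other droplet coat and assembly genes, 15 were tested, 1 was called higher, none lower and 14 did not pass. Over all genes tested, 1.73% were called higher and 2.77% lower. The median log2 fold change was 0.18 for this list, against 0.01 over all genes tested. The called gene was Hilpda, whose product also inhibits adipose triglyceride lipase, at 1.24 ± 0.352 CPM in Chow and 2.65 ± 0.613 CPM in TM5614 (SD, n = 5 each, edgeR log2 fold change 1.11, SE 0.27, adjusted p = 0.0376). Hilpda had at most 34 counts in a library, and its call was lost on leaving out any 1 library except Chow replicate 2 and TM5614 replicate 1 (edgeR adjusted p from 0.0680 to 0.106). The adipocyte coat gene Plin1 and the CIDE gene of brown fat, Cidea, were not tested, with at most 1.82 and 2.46 CPM in any liver.

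Of 16 other neutral lipid hydrolases, 14 were tested, none was called higher and 3 were called lower, with a median log2 fold change of 0.08. All 3 were carboxylesterases of the Ces1 cluster, enzymes of the endoplasmic reticulum that hydrolyse triglyceride and cholesteryl ester. Ces1g fell by 1.09 on the log2 scale (edgeR, SE 0.17, adjusted p = 0.00411), Ces1d fell by 0.76 (SE 0.16, adjusted p = 0.0189) and Ces1f fell by 0.43 (SE 0.11, adjusted p = 0.0410). Ces1g passed without any single library. Ces1d did not pass without Chow replicate 3 (edgeR adjusted p = 0.0545) or TM5614 replicate 3 (0.0532), and Ces1f passed only without Chow replicate 1 or 2 (0.0572 to 0.126 without any of the others). These genes are close in sequence, so the split of reads between them is uncertain. The droplet lipases Pnpla3 and Pnpla5 were at or near 0, with at most 5 counts of Pnpla3 and none of Pnpla5 in any library.

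Of 11 transcription factors known to act on these genes, none was called higher and 2 were called lower. The shares over all genes tested were 1.73% higher and 2.77% lower. The median log2 fold change of the factors was -0.16, against 0.01 over all genes tested. Srebf1, the regulator of fatty acid synthesis, fell by 1.84 on the log2 scale (edgeR, SE 0.19, adjusted p = 0.000402), from 111 ± 27.2 to 30.9 ± 6.81 CPM (SD, n = 5 each). Rxra, the partner of PPARα on DNA, fell by 0.38 (edgeR, SE 0.09, adjusted p = 0.0417), and among the fits without a single library it passed only without Chow replicate 2 (0.0153, against 0.0559 to 0.127). Ppara, singled out after its values were seen, had a log2 fold change of -0.03 (edgeR, SE 0.14, adjusted p = 0.922).

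Markers of the cells of the liver were checked beside these results. None of the 8 hepatocyte, 7 Kupffer cell, 7 stellate cell or 7 liver endothelium markers was called, and all were tested. With 4.50% of all genes tested called, the lack of calls does not set these markers apart from the background. Hepatocyte markers summed to 113546 to 126414 CPM in Chow and 99041 to 115114 CPM in TM5614 livers, so the defining markers of the labelled tissue were present in all 10 livers. Kupffer cell markers summed to 56.9 to 174 and 60.9 to 131 CPM, stellate cell markers to 167 to 291 and 263 to 529 CPM, and endothelial markers to 115 to 200 and 119 to 209 CPM. The stellate maximum was again TM5614 replicate 2, through Des, a gene that muscle also expresses and that is named after its values were seen. The part of these cell types in the changes of droplet genes was not tested.

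The genes most alike to the pair with the largest changes were sought by the order of the 10 livers. For Cidec these were Tcp1, BC003331 and Mettl16, with a mean difference in rank of 0.4, 0.6 and 0.6 places, and for G0s2 they were Efnb1, Ei24 and Cd9, with 0.4, 0.8 and 0.8 places. For G0s2, 6 genes lay within 0.8 places, 5 of them tied at 0.8, and Ei24 and Cd9 were the tied genes with the highest mean CPM. The 6 named genes had log2 fold changes from 0.19 for Ei24 to 0.52 for Cd9, and Tcp1 alone passed the test (edgeR log2 fold change 0.38, SE 0.09, adjusted p = 0.0429). Its call was lost without any 1 library except Chow replicate 2 (adjusted p from 0.0609 to 0.130), and its log2 fold change was 0.18 with GC content and length corrected (edgeR adjusted p = 0.377).

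Over 24 other settings of the processing, Cidec kept log2 fold changes of 2.27 to 2.64, G0s2 of 1.43 to 1.90, Plin5 of 1.24 to 1.59 and Plin2 of 0.94 to 1.17, and each passed its threshold in all 24. Plin4 kept log2 fold changes of 0.77 to 1.14 and passed in 16 of them, Mgll passed in 3, and Cideb, Pnpla2, Abhd5 and Lipe passed in 0.

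**Figure D5:**
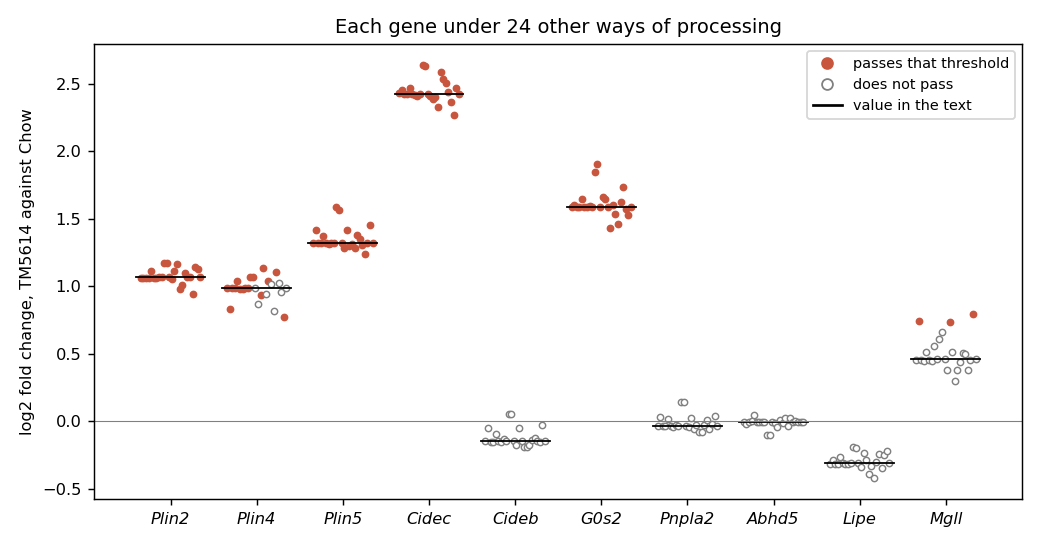
Log2 fold change of each gene, TM5614 against Chow, under 24 other settings (points, filled where the setting's threshold was passed), with the value of the text as a line. Cidec, G0s2, Plin5 and Plin2 are filled throughout, Plin4 in part and Mgll in 3 settings.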

How the data were processed

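Counts per gene symbol were deposited by the authors as whole, unnormalized numbers for 5 Chow and 5 TM5614 livers. Per the study's methods and the submitters' processing notes, single-end reads from KAPA mRNA HyperPrep libraries were aligned with STAR to mm10 in Illumina's RNA Express application, and HOMER and DESeq2 were also used. The use of strand in counting, the annotation and the versions are not given in the sources used here. Deposited FPKM values equal the counts divided by a factor per gene and by DESeq2's size factor per library (checked on 12419 genes), and they served for levels per length and ratios. The authors' regularised values and their table of fold changes and p-values were not used.

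The members and lists were chosen with earlier results of these data known. Columns were matched to samples by mouse number. No pair of libraries within a group was a copy (lowest chi-square per degree of freedom 8.00 over 20 pairs). Genes passing filterByExpr (11092) were scaled by TMM and tested two-sided with edgeR 4.0.16 (glmQLFit, glmQLFTest, R 4.3.3), with Benjamini-Hochberg adjustment and a threshold of 0.05. Standard errors divide the size of the log2 fold change by the root of the F statistic, and 95% intervals use the fit's degrees of freedom. The scripts were tested on simulated data. P-values set the difference between the groups against the spread between these mice. Alternatives included DESeq2 1.42.0 and limma-voom (limma 3.58.1), other scalings and filters, GC and length correction, the replicate number as a block and leaving out each library. Gene positions are from GENCODE on GRCm38 (mm10). Named genes were all 10 members, list genes with an adjusted p under 0.05 or at or near 0, and the 3 tested genes nearest in mean rank of CPM to each of the 2 called members with the largest change, with ties broken by the higher mean CPM. Ppara, Des, Fabp4, Adrb3 and Nop9 fall outside this rule and were named after their values were seen.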

Additional observations from a re-analysis of the deposited data

How the results depend on the processing

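Of the 10 genes, 4 to 6 were called higher and 0 lower under 24 other settings, through Plin4 and Mgll alone. The number of genes called over the whole table was less stable. Against 499 it was 907 with DESeq2, 1386 with limma-voom, 219 when tested against a fold of 1.2, 184 at an adjusted p under 0.01 and 1230 without replicate 2 of both groups. Leaving out 1 library gave 235 to 1031 genes, 235 without TM5614 replicate 3 and 1031 without Chow replicate 2, and the cause was not tested. Outside 1.5 times the main count were also 293 without Chow replicate 3, 331 without TM5614 replicate 1 and 259 without TM5614 replicate 4.

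The groups share replicate numbers. Deviations of same-numbered livers correlated at 0.0269 to 0.327, and 1 of 5 numbers matched itself best. Pairing of the mice by number was thus not detected, but these 5 values cannot exclude it. The paper describes the controls as age-matched littermates. A fit with the replicate block called 555 genes and the same 5 of the 10 genes, with Plin4 at an adjusted p of 0.0468 (edgeR), while Hilpda (0.0785), Ces1d (0.0520), Ces1f (0.0701), Rxra (0.0825) and Tcp1 (0.0783) missed the threshold. Cideb, Pnpla2 and Abhd5 changed sign in 2, 7 and 4 of the 24 settings without passing in any. With library totals alone 4 of the 10 genes still had groups apart, and with counts per relative length all 10 kept their place in the order of levels in both groups. Depth limits low genes such as Hilpda, with at most 34 counts in a library, and Cidec, with 22 to 77 counts per Chow library.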
